A study of Rattus norvegicus with 6 samples.

Results

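The genes described here are 10 markers that separate the principal neurons of the hippocampal subfields: Prox1, Calb1, C1ql2 and Dsp for dentate granule cells, Wfs1 and Fibcd1 for CA1, Rgs14, Amigo2 and Pcp4 for CA2, and Grik4 for CA3. They were chosen by name, and every non-control probe whose accession belongs to one of them was taken. That gave 11 of the 30367 non-control probes, covering 9 of the 10 genes. No probe was matched to Dsp, the desmosomal plaque protein desmoplakin, so Dsp was not analysed here. All 11 probes were well above background on all 6 arrays and all 11 passed the filter on dim probes.

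The arrays held cyanine-labelled RNA from hippocampal tissue of male SD (Sprague Dawley) rats. The AD group (3 arrays) came from rats that received Aβ1-42 oligomers into the lateral ventricles, an injection model of Alzheimer's disease-like change, and the Sham group (3 arrays) from rats that received the vehicle by the same route. The methods describe the animals as adult, the labels give no age, and no source says whether each array is 1 rat, so p-values measure only the spread between these samples. Each level is the processed signal of the scanner software, taken as log2 and set against the 75th percentile of that array, so 0 stands at that percentile and levels of different probes are not comparable with each other. The number of arrays limits the precision.

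The hippocampus is a chain of fields with distinct principal cells. Granule cells of the dentate gyrus send mossy fibres to CA3 pyramidal cells, CA3 sends Schaffer collaterals to CA1, and the small CA2 field lies between them with its own inputs and an unusual resistance to synaptic potentiation. Each field keeps its own set of transcribed genes in the adult, and such markers are used to tell the fields apart in tissue sections and in single-cell data. In a bulk sample, fewer cells of a field and less RNA per cell cannot be told apart.

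Of the 11 probes, 2 were called at an adjusted p under 0.05 (limma, adjusted by the Benjamini-Hochberg method across the 22768 probes tested), and both belonged to Fibcd1 and were lower in AD. Across all tested probes 12.6% were called, 4.15% as higher and 8.40% as lower in AD, and the members' count rests on 1 gene, so it is not read as a result about the markers as a set. The 3 AD values and the 3 Sham values did not overlap for 3 of the 11 probes, 1 with AD above and 2 with AD below, against 39.0% of all tested probes. At an unadjusted p under 0.05 (limma) there were 3 of the 11 member probes, against 7124 of all tested probes (31.3%). The median log2 difference, AD minus Sham, was -0.08 over the members and -0.01 over all tested probes.

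**Figure D1:**
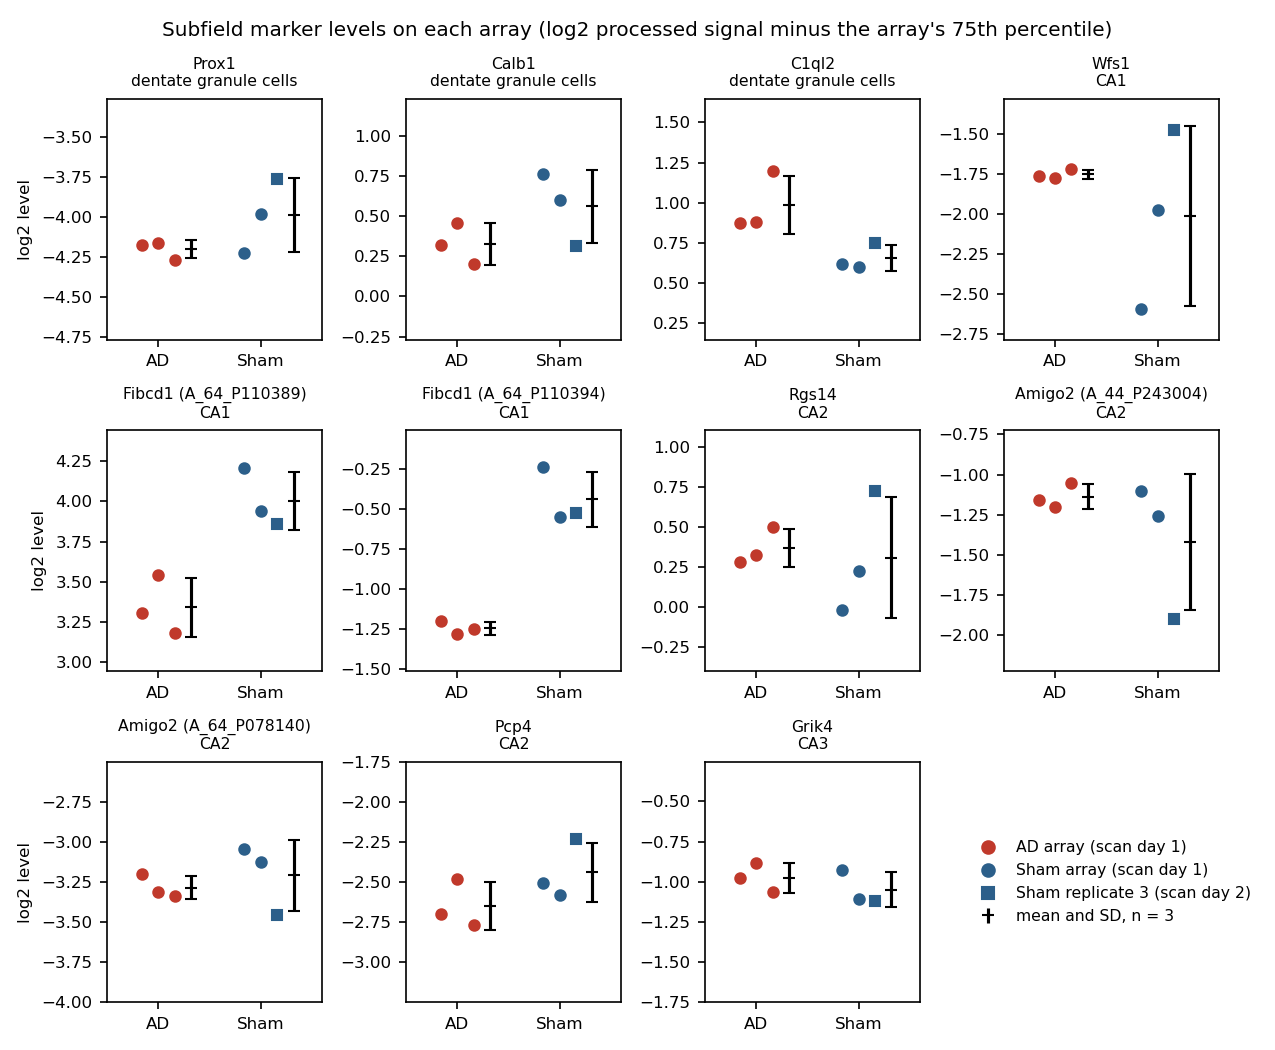
Log2 level of each marker probe (y axis, processed signal on the log2 scale relative to each array's 75th percentile; every panel spans the same height) on the 3 AD arrays (left) and the 3 Sham arrays (right), with the mean and SD of each group (n = 3). The squares are Sham replicate 3, scanned on another day; the groups separate for both Fibcd1 probes and for C1ql2.

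Fibcd1 encodes a membrane receptor that binds acetylated groups through a fibrinogen-like domain, and it marks CA1 pyramidal cells. With probe A_64_P110389 its log2 level was 3.31, 3.54 and 3.18 on the AD arrays, against 4.21, 3.94 and 3.86 on the Sham arrays. With probe A_64_P110394 the level was -1.20, -1.28 and -1.25 on the AD arrays, against -0.24, -0.55 and -0.53 on the Sham arrays. Every AD array lay below every Sham array on both probes. The first probe was 1.58-fold lower in AD (log2 difference -0.66 ± 0.14 SE, 95% interval -1.004 to -0.32, adjusted p = 0.037, limma) and the second 1.75-fold lower (-0.80 ± 0.11 SE, 95% interval -1.07 to -0.53, adjusted p = 0.020, limma). These absolute differences stood at percentiles 90.3 and 94.3 of all tested probes.

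Both probes read the same gene, so they are not independent measurements of the condition. The distance between them on an array was 4.43 to 4.82 log2 units in AD and 4.38 to 4.49 in Sham. Sham replicate 1 was the highest array on both probes. Before scaling, A_64_P110389 had processed signals of 8837, 9258 and 8438 on the AD arrays, against 13911, 11589 and 6225 on the Sham arrays, and A_64_P110394 had 389, 328 and 391 against 637, 516 and 298. Sham replicate 3 therefore had the lowest unscaled signal on both probes and stood among the Sham arrays only after scaling. Its 75th percentile was 429, against 795 to 932 on the AD arrays and 753 and 755 on the other Sham arrays.

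**Figure D2:**
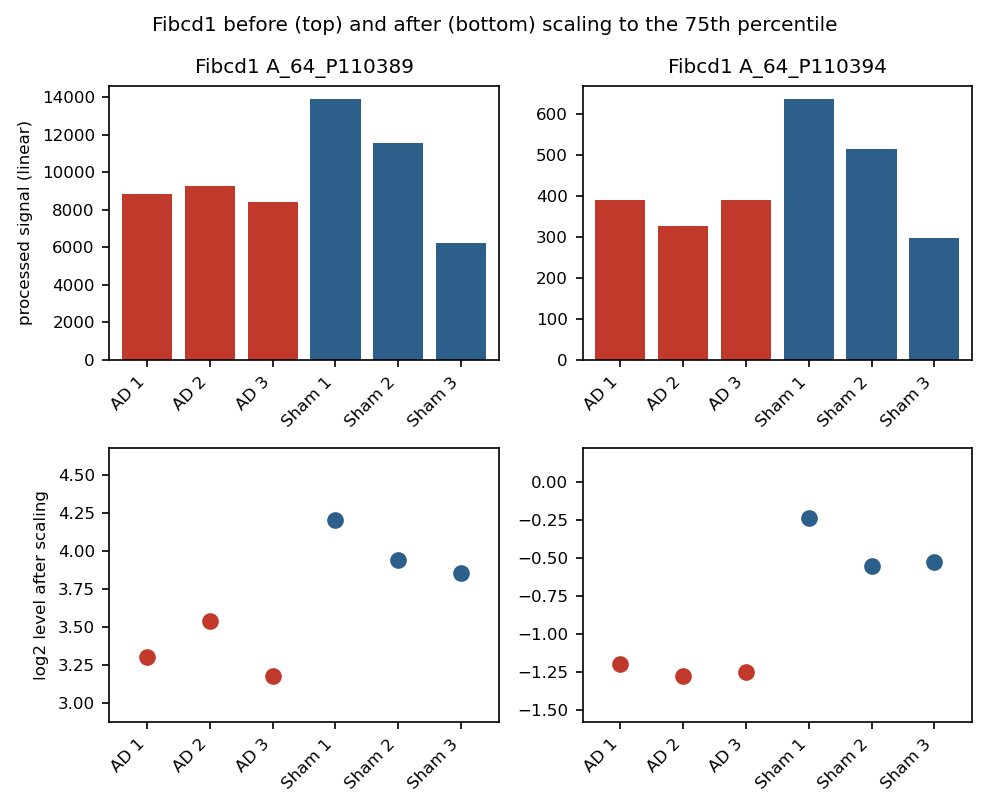
Processed signal (top, linear y axis from 0) and scaled log2 level (bottom) of the 2 Fibcd1 probes on the 3 AD arrays (red) and the 3 Sham arrays (blue). Sham replicate 3 has the lowest bar on both probes, 6225 and 298, while its scaled levels of 3.86 and -0.53 lie with the other Sham arrays.

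The Fibcd1 calls depended on single arrays, as did calls over all tested probes. Without any 1 array other than Sham replicate 3, limma called 0 to 2 of all tested probes. The groups did not overlap on either Fibcd1 probe, so leaving out 1 array could not change the direction. For A_64_P110389 the adjusted p was 0.1499 without AD replicate 1, 0.0576 without AD replicate 2, 0.122 without AD replicate 3, 0.0839 without Sham replicate 1 and 0.0944 without Sham replicate 2. For A_64_P110394 it was 0.117, 0.0542 and 0.0858 without AD replicates 1, 2 and 3, and 0.0545 and 0.0696 without Sham replicates 1 and 2. Left without Sham replicate 3, both probes were called, at log2 differences of -0.73 (adjusted p = 0.034) and -0.85 (adjusted p = 0.020). The log2 difference over the 6 fits that left out 1 array lay between -0.76 and -0.56 for A_64_P110389 and between -0.86 and -0.70 for A_64_P110394.

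The 3 AD arrays shared 1 scan, Sham replicates 1 and 2 shared another made that day, and Sham replicate 3 was scanned on a different day. Scan and group cannot be told apart. With the scan as a random block the adjusted p was 0.265 for A_64_P110389 and 0.179 for A_64_P110394, and the log2 differences were -0.64 and -0.79. That fit called 0 of all tested probes.

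The RefSeq promoter table (rat build GRCr8) held 8 of the 10 genes. The window of Fibcd1 is printed because it is the member called in AD against Sham. It covers chr3:35524093-35524392 on the minus strand, 250 bases before to 50 after the start, read 5′ to 3′ along the gene, and capitals mark the GC box GGGCGG.
Fibcd1: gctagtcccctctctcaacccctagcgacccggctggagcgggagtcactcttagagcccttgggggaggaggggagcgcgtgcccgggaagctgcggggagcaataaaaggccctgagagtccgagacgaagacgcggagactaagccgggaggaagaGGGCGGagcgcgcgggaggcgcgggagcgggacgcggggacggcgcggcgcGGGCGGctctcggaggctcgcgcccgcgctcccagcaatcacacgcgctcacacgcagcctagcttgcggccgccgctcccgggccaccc
GGGCGG occurred 2 times in this window, on either strand, and in 33.1% of the 33469 RefSeq promoter windows of the same length. The E-box CANNTG, present in 72.1% of those windows, and TATAAA, present in 14.2%, had no match here, which says only that these letters are not in this window. The window was 72.7% G or C. These matches describe the sequence and were not measured on the arrays.

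Wfs1, the other CA1 marker, encodes wolframin, a membrane protein of the endoplasmic reticulum. Its log2 level was -1.76, -1.78 and -1.72 on the AD arrays, against -2.59, -1.97 and -1.47 on the Sham arrays. The AD arrays lay within 0.06 of each other, and inside the spread of the Sham arrays, which covered 1.12. The difference was 0.26 ± 0.27 SE (95% interval -0.40 to 0.92, adjusted p = 0.551, limma). It was 0.53 without Sham replicate 3 and -0.03 without Sham replicate 1, so its sign rested on 1 Sham array.

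Prox1 is the homeobox transcription factor that sets and keeps granule cell identity. Its level was -4.17, -4.17 and -4.27 on the AD arrays, against -4.22, -3.98 and -3.76 on the Sham arrays. AD replicate 3 was the lowest array, and Sham replicate 1 lay among the AD values. The difference of -0.21 ± 0.13 SE was not called (95% interval -0.54 to 0.11, adjusted p = 0.324, limma). It was -0.10 without Sham replicate 3 and -0.33 without Sham replicate 1.

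Calb1, the calcium buffer calbindin, is abundant in granule cells and is also made by CA1 pyramidal cells, interneurons and Purkinje cells. It had levels of 0.32, 0.46 and 0.20 in AD, against 0.76, 0.60 and 0.32 in Sham. Sham replicate 3 lay at the level of AD replicate 1, and the groups overlapped. The difference was -0.24 ± 0.14 SE (95% interval -0.58 to 0.11, adjusted p = 0.312, limma), and it was -0.13 without Sham replicate 1 and -0.36 without Sham replicate 3. It was called only when arrays were weighted by their estimated quality, at -0.31 with an adjusted p of 0.023, in a fit whose weight estimation stopped short of convergence, and its adjusted p lay between 0.023 and 0.694 over the 19 alternatives.

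C1ql2 is a secreted C1q-like protein that granule cells place at mossy fibre synapses, where it binds kainate receptors. Its level was 0.88, 0.88 and 1.20 on the AD arrays, against 0.62, 0.60 and 0.75 on the Sham arrays. All 3 AD arrays lay above all 3 Sham arrays, with AD replicate 3 the highest. The difference was 0.33 ± 0.12 SE, a fold of 1.26 (95% interval 0.04 to 0.62, unadjusted p = 0.032, adjusted p = 0.122, limma), and it was not called. With array weights, whose estimation did not fully converge, it was 0.29 at an adjusted p of 0.039, and over the 19 alternatives the adjusted p lay between 0.039 and 0.491. Among the 3 measured granule cell markers, the mean was thus higher in AD for C1ql2 and lower for Prox1 and Calb1, and 0 of the 3 passed the test.

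**Figure D3:**
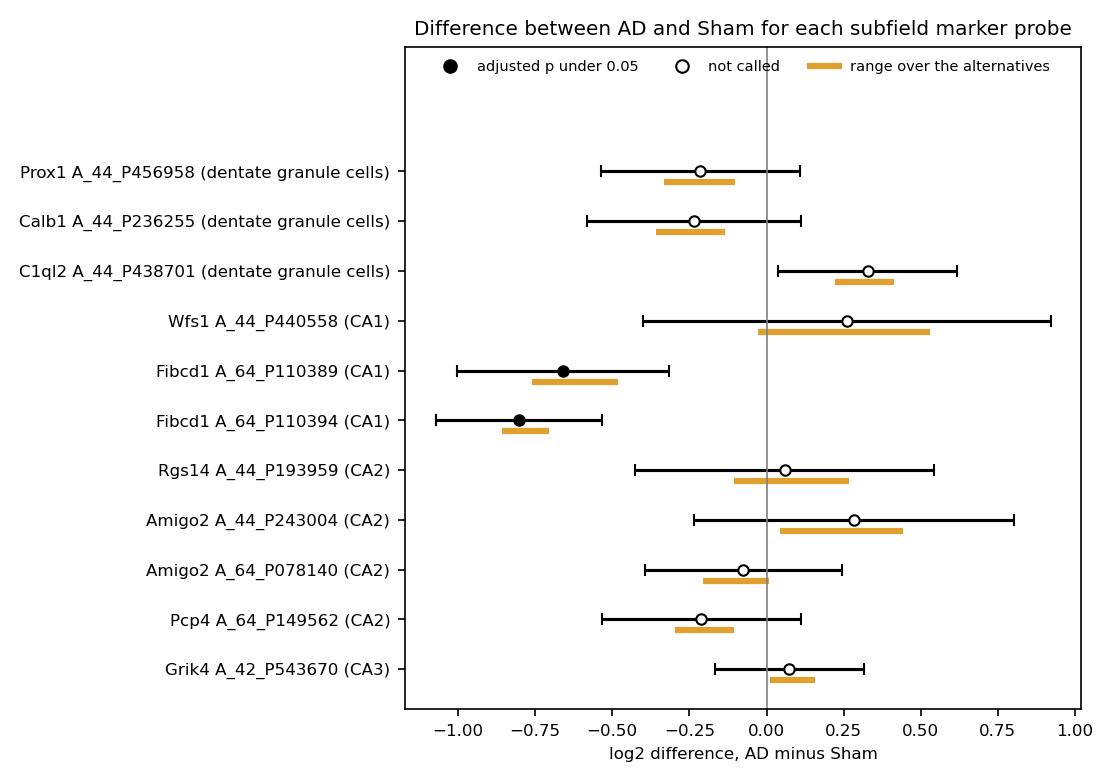
Log2 difference, AD minus Sham (x axis), of each marker probe with its 95% interval; filled points have an adjusted p under 0.05. The orange bar under each point is the range of the difference over the 19 alternatives, and it stays below 0 for both Fibcd1 probes, while it crosses 0 for Wfs1, Rgs14 and the A_64_P078140 probe of Amigo2.

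Rgs14 regulates G proteins and in mice restrains long-term potentiation in CA2 neurons. It had levels of 0.28, 0.33 and 0.50 on the AD arrays, against -0.02, 0.22 and 0.72 on the Sham arrays. The AD arrays all lay inside the Sham spread of 0.74. The difference was 0.06 ± 0.20 SE (95% interval -0.43 to 0.54, adjusted p = 0.865, limma), and it was -0.11 without Sham replicate 1 and -0.01 without AD replicate 3.

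Amigo2, a leucine-rich repeat adhesion protein enriched in CA2, was read by a pair of probes. With A_44_P243004 its level was -1.16, -1.20 and -1.05 in AD, against -1.10, -1.26 and -1.90 in Sham. With A_64_P078140 it was -3.20, -3.31 and -3.34 in AD, against -3.04, -3.13 and -3.46 in Sham. Sham replicate 3 was the lowest array on both probes. The differences had opposite signs, 0.28 ± 0.21 SE (95% interval -0.24 to 0.80, adjusted p = 0.411, limma) and -0.08 ± 0.13 SE (95% interval -0.39 to 0.24, adjusted p = 0.731, limma). Without Sham replicate 3 the first difference was 0.04, and the second was 0.01 without Sham replicate 1.

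Pcp4, a small calmodulin regulator, is strong in CA2 and also found in granule cells. Its level was -2.70, -2.48 and -2.77 on the AD arrays, against -2.51, -2.58 and -2.23 on the Sham arrays. AD replicate 2 lay among the Sham values. The difference was -0.21 ± 0.13 SE (95% interval -0.54 to 0.11, adjusted p = 0.330, limma), and it was -0.11 without Sham replicate 3 and -0.30 without AD replicate 2.

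Grik4, the only CA3 marker of the set, encodes the kainate receptor subunit GluK4. Its level was -0.98, -0.89 and -1.07 on the AD arrays, against -0.92, -1.11 and -1.12 on the Sham arrays, and the groups overlapped. The probe was printed 10 times on each array, and the SD over those spots was 0.063 to 0.103 log2 units. The difference was 0.07 ± 0.10 SE (95% interval -0.17 to 0.32, adjusted p = 0.649, limma), the narrowest interval among the members, and leaving out 1 array moved it between 0.03 and 0.14.

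Spread differed between the groups for these markers. The median SD over the 11 probes was 0.091 in AD and 0.220 in Sham, against 0.115 in AD and 0.176 in Sham over all tested probes, and no test of that difference was made. Sham replicate 3 was the highest array on 4 probes and the lowest on 3, and Sham replicate 1 the highest on 4 and the lowest on 2. Set against the mean of the other Sham arrays, Sham replicate 3 stood 0.81 higher for Wfs1 and 0.62 higher for Rgs14, and it stood 0.72 lower for the A_44_P243004 probe of Amigo2.

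A wider set of 45 symbols for the same 4 cell classes, 2 of them older names of listed genes, gave 33 genes with a named probe and 31 that were tested, each by its probe with the highest mean level. Of these, 4 were called, 1 higher and 3 lower in AD, and the groups did not overlap for 10, against 12.6% called and 39.0% not overlapping over all tested probes. Neither count is read as particular to these lists. Their median log2 difference was -0.01. Called genes numbered 1 of 11 for dentate granule cells, 2 of 7 for CA1, 1 of 6 for CA2 and 0 of 7 for CA3.

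In the wider CA1 list both called genes were lower in AD. Crym, a thyroid hormone-binding protein of the cytosol, had levels of 4.98, 5.22 and 4.74 in AD, against 6.044, 6.003 and 6.042 in Sham, and was 2.07-fold lower in AD (-1.05 ± 0.13 SE, adjusted p = 0.019, limma). Ccn3, a secreted matricellular protein, had levels of 2.23, 1.95 and 2.56 in AD, against 2.90, 3.37 and 3.84 in Sham, and was 2.17-fold lower (-1.12 ± 0.27 SE, adjusted p = 0.049, limma). The groups did not overlap for 5 of the 7 genes of this list, 1 with AD above and 4 with AD below, against 39.0% of all tested probes. The other 3 were Pou3f1, a POU-domain transcription factor, at 0.53 ± 0.19 SE (adjusted p = 0.117, limma), Mpped1 at -0.36 ± 0.13 SE (adjusted p = 0.116, limma) and Lmo1 at -0.25 ± 0.09 SE (adjusted p = 0.131, limma), named after their values were seen.

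**Figure D4:**
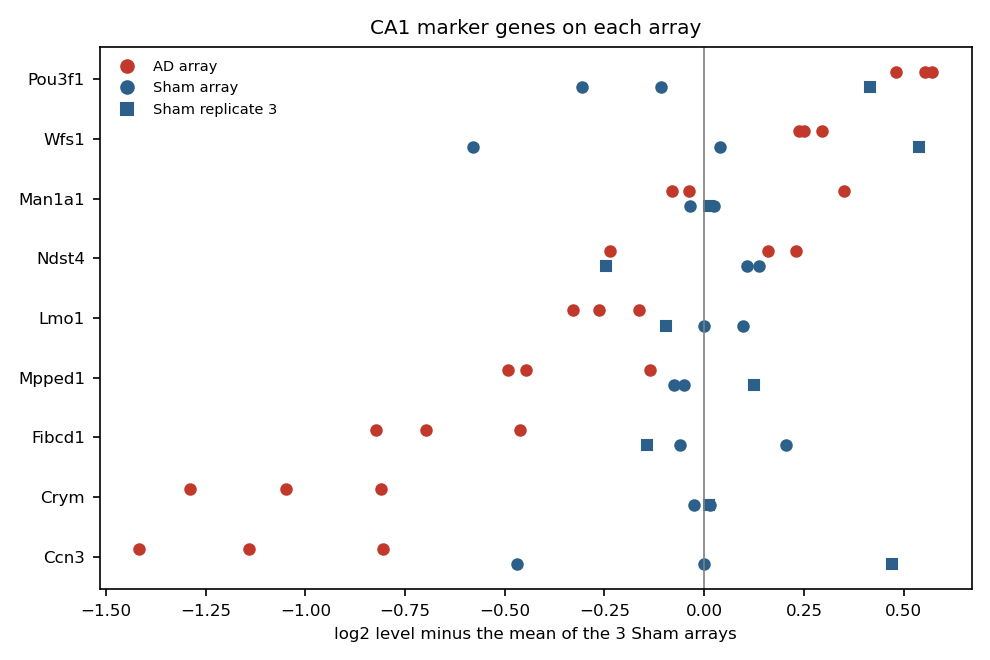
Log2 level minus the mean of the 3 Sham arrays (x axis) for the 2 CA1 members and the 7 tested genes of the wider CA1 list, with AD arrays in red above Sham arrays in blue; Fibcd1 is shown by A_64_P110389. Ccn3, Crym and Fibcd1 lie left of their Sham arrays and Pou3f1 lies right, while the AD points of Wfs1 fall inside the Sham spread.

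Sema5a, a semaphorin of granule cells, had levels of 0.42, 0.40 and 0.40 in AD, against -0.40, -0.43 and -0.21 in Sham, and was 1.69-fold higher (0.76 ± 0.09 SE, adjusted p = 0.018, limma). Its other probe disagreed, at -0.27 ± 0.14 SE (adjusted p = 0.238, limma). Necab2, a neuronal calcium-binding protein of CA2, had levels of -2.66, -2.66 and -2.71 in AD, against -2.03, -2.36 and -2.28 in Sham, and was 1.37-fold lower (-0.45 ± 0.11 SE, adjusted p = 0.0499, limma). In the CA3 list the means that stood furthest apart were those of Nnat, the membrane proteolipid neuronatin, at -0.54 ± 0.16 SE (adjusted p = 0.075, limma), and Coch, an extracellular protein, at 0.37 ± 0.23 SE (adjusted p = 0.321, limma).

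These 4 calls also changed with single arrays, as did calls over all tested probes. Of all tested probes, limma called 0 to 2 without any 1 array other than Sham replicate 3. Sema5a and Crym were called without Sham replicate 3, at adjusted p-values of 0.017 and 0.022, and lost the call without any 1 of the other 5 arrays, at 0.0515 to 0.117. Ccn3 (0.0559 to 0.164) and Necab2 (0.05002 to 0.173) lost it whichever array was left out. No sign changed for these 4 genes over the 19 alternatives. Most of these fits could not have changed it. The groups did not overlap for any of the 4 genes, so leaving out 1 array could not reverse a difference. Alternatives that altered only the filter, the slide position or replicate block, or the test kept the difference of the reported fit.

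**Figure D5:**
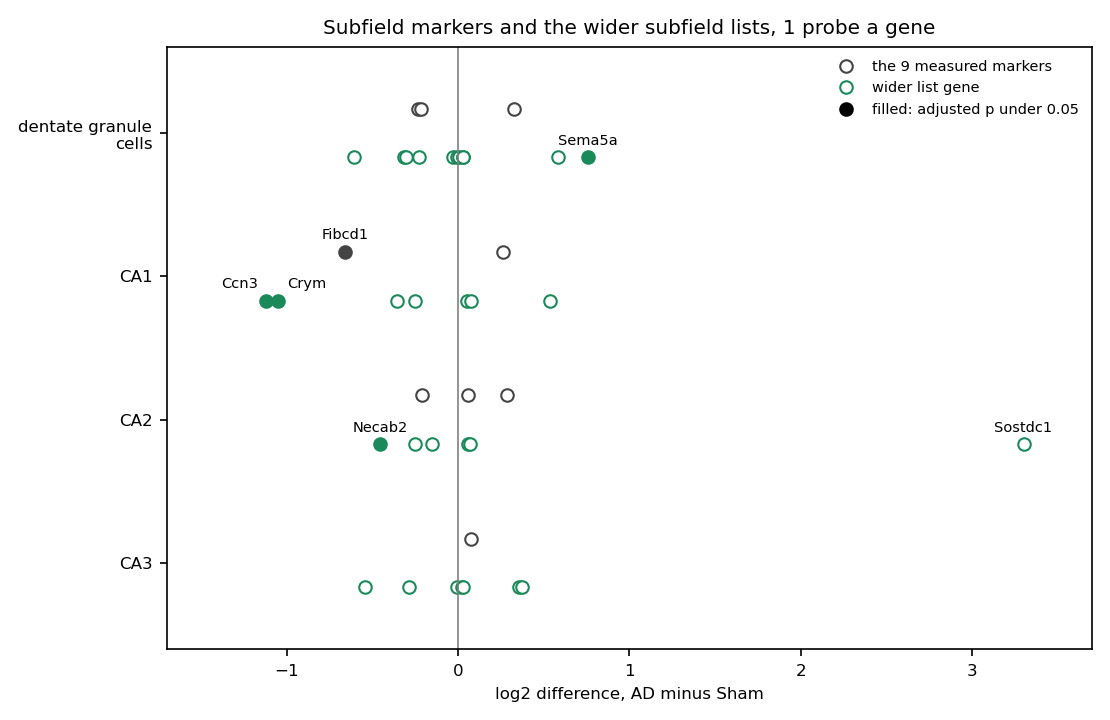
Log2 difference, AD minus Sham (x axis), of the 9 measured markers (grey, 1 probe a gene) and of the 31 tested genes of the wider lists (green), by cell class; filled points have an adjusted p under 0.05. Fibcd1, Crym, Ccn3 and Necab2 lie to the left, Sema5a to the right, and Sostdc1 stands alone at 3.30 without passing the test.

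Sostdc1, a secreted antagonist of BMP and Wnt signals on the CA2 list, had the widest difference, 3.30 ± 1.05 SE (adjusted p = 0.091, limma). Its level was 3.182, 0.299 and 3.995 on the AD arrays, against -1.997, -0.695 and 0.268 on the Sham arrays, so AD replicates 1 and 3 stood apart from AD replicate 2. Markers of choroid plexus, the ventricular epithelium, showed the same order: the median of the 7 tested genes, of 8 listed, stood 3.01, 0.58 and 3.85 above their Sham means on AD replicates 1, 2 and 3. None of the 7 was called, all were well above background on 5 or 6 arrays, and their summed linear level, in units of each array's 75th percentile and mostly Ttr, was 80.9 to 135 in AD and 27.2 to 102 in Sham. Their part in the Sostdc1 values was not tested.

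Lists for whole classes of neurons were read beside Fibcd1. Over all tested probes 12.6% were called, 8.40% as lower and 4.15% as higher in AD. For GABAergic interneurons 6 of 11 tested genes were called, all lower in AD (Vip at -1.34, Dlx1 at -1.06, Slc32a1 at -0.86), with a summed linear level of 69.3 to 73.7 in AD and 118 to 121 in Sham. Cck, named after its values were seen, weighs most in that sum. It had the highest log2 level of the 11, 4.65 to 4.72 in AD and 5.26 to 5.54 in Sham. For pan-neuronal genes 5 of 7 were called, all lower (Elavl4 at -0.73, Syt1 at -0.64, Nefl at -0.57), with 59.6 to 67.6 in AD and 77.3 to 86.4 in Sham. For glutamatergic forebrain neurons, the class that holds every subfield principal cell, 0 of 9 were called, the median difference was 0.05, and the sums were 42.0 to 47.5 in AD and 43.6 to 48.8 in Sham. Of these 9, the vesicular glutamate transporter Slc17a7 had the lowest difference, at -0.40 ± 0.11 SE (adjusted p = 0.059, limma), and the transcription factor Zbtb20 the highest, at 0.24 ± 0.18 SE (adjusted p = 0.402, limma). The part of these lists in the Fibcd1 difference was not tested.

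Markers of neighbouring tissue and of glia were measured alongside. Each list is short, and the share called over all tested probes was 12.6%, so these counts are not read as particular to a list. Called genes numbered 1 of 6 for striatum (Ppp1r1b at 0.80), 1 of 5 for thalamus (Lef1 at 0.48), 0 of 4 for neocortex (Tbr1 at 0.46, Rspo1 at -0.15), 1 of 3 for cerebellum (Car8 at -0.37), 2 of 6 for oligodendrocytes (Cldn11 at 0.64, Cnp at 0.55), 0 of 6 for astrocytes (Gfap at 0.95, Slc1a3 at -0.32) and 0 of 6 for microglia (Itgam at -0.45, Aif1 at -0.27). The 3 tested cerebellar genes include Calb1, which is also a dentate member here. Without Sham replicate 3 the difference was 0.44 for Gfap, -0.10 for Itgam, -0.53 for Aif1 and -0.26 for Rspo1. The striatal list summed to 3.01 to 3.78 in AD and 2.68 to 2.76 in Sham, and the neocortical list to 1.64 to 1.70 in AD and 1.53 to 2.25 in Sham. The part of neighbouring tissue in the marker values was not tested.

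The genes most like Fibcd1 over the 6 arrays were found by setting each probe to 0 at its Sham mean and taking the lowest root mean square difference. For A_64_P110389 they were Mt1 (0.051 log2 units), Drc3 (0.064) and Cryl1 (0.066). For A_64_P110394 they were Lsm11 (0.050), Sytl5 (0.056) and Birc5 (0.061). The likeness rests on 6 arrays of the same hybridisations, and none of these 6 genes was listed for a hippocampal subfield.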

How the data were processed

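Per the labels, total RNA of 6 hippocampal samples was amplified, labelled with cyanine 3 and hybridised to 1-colour Agilent rat arrays (designed on build rn4). The scanner output deposited by the authors holds the linear intensity of each spot, as Feature Extraction 11.0.1.1 gave it after background correction. The authors also deposited a table of log2 values, whose normalization is not given in the sources used here, and it served as an alternative: its columns labelled AD-2 and AD-3 correlated best with the scanner arrays AD-3 (r = 0.994) and AD-2 (r = 0.999), an exchange within 1 group.

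Each array held 44254 spots, and its control spots were left out. Outlier-flagged spots (400 to 559 of 42877 non-control spots an array) were also left out, and 0 non-control spots were saturated. Spots of 1 probe were averaged on the log2 scale, and the log2 of each array's 75th percentile was then subtracted. The software marked 70.7% to 79.7% of probes as well above background. Probes that reached this in 3 or more of 6 arrays were tested with limma 3.58.1 in R 4.3.3 (lmFit and eBayes, two-sided, AD minus Sham, no covariate), with Benjamini-Hochberg adjustment over all 22768 of them. The fit was tested on simulated data. Accessions were named through RefSeq, which matched 15252 of 26997. The split of calls depended on these steps: 33.1% of all called probes were higher in AD here, against 53.2% with the percentile taken over detected probes (scaling) and 17.4% with normexp (background correction on another signal column).

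Named were all members with every probe, up to 3 called genes of each list with the widest differences (2 where none was called), and the 3 genes most like each called member probe. Of the listed genes, 1 is not reported here. The members and lists were chosen with earlier results of these data known. Alternatives covered background correction, scaling, filter, scan, slide position, replicate number, array weights, the test in the study's methods and leaving out each array. The deposited files had no mean-signal column, so normexp (offset 50) used the median spot signal.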

Additional observations from a re-analysis of the deposited data

How the results depend on the processing

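Over 19 alternatives the log2 difference of Fibcd1 stayed below 0, between -0.76 and -0.48 for A_64_P110389 (adjusted p 0.0031 to 0.265, called in 6) and between -0.86 and -0.70 for A_64_P110394 (0.0019 to 0.179, called in 10). The groups did not overlap, so the fits without 1 array could not change that sign. These counts hold both the scan day block and the fit without Sham replicate 3, which gave the same differences. Leaving out 1 array moved the difference between -0.029 and 0.53 for Wfs1, between -0.11 and 0.27 for Rgs14 and between -0.20 and 0.0083 for A_64_P078140 of Amigo2. Among members not called, the sign changed for Wfs1 without Sham replicate 1 (-0.029), for Rgs14 without AD replicate 3 (-0.0069) and without Sham replicate 1 (-0.11), and for A_64_P078140 of Amigo2 with the percentile over detected probes (0.0080) and without Sham replicate 1 (0.0083).

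Against 2 member probes called by limma in the reported fit, 1 was called with normexp correction, with quantile normalization, with the authors' value table and with the methods' t-test after Benjamini-Hochberg. Array weights, whose estimation stopped before it converged, called 4 of them (1 higher, 3 lower in AD), 14 wider subfield genes and 9872 of all probes. None of the member probes was called with no filter on dim probes, with the scan as a random block, with the slide position as a fixed block (added after the data were seen), with the replicate block, or with the methods' t-test at an unadjusted p under 0.05 and a fold of at least 2; at an unadjusted p under 0.05 the first 4 of these fits held 3, 2, 2 and 3 member probes. Against 4 wider subfield genes, 7 were called with the scan day as a fixed block, 2 with the percentile over detected probes, 2 with no filter, 2 with the methods' t-test after Benjamini-Hochberg and 2 with its fold threshold, and 0 with the scan block, the slide position and the replicate block (3, 10 and 9 at an unadjusted p under 0.05). Against 2858 of all probes, 1763 were called with normexp correction, 352 with no filter, 4468 with the scan day as a fixed block, 1848 with the methods' t-test after Benjamini-Hochberg, 327 with its fold threshold, and 0 with the scan block, the slide position and the replicate block (3672, 6480 and 6482 at an unadjusted p under 0.05). Leaving out 1 array gave 0 to 2 member probes, 0 to 6 wider genes and 0 to 4450 of all probes, the highest each time without Sham replicate 3; without any 1 of the other arrays limma called 0 to 2 of all probes (2 or 3 member probes and 4857 to 6445 of all probes at an unadjusted p under 0.05). The cause of these changes was not tested. Normexp correction moved the median of all tested probes to -0.15, while the Fibcd1 differences under it were -0.58 and -0.71.

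Same-numbered AD and Sham arrays deviated together with correlations of 0.028, 0.072 and 0.138, so the numbers were not taken as pairs and the replicate block is given here only. Each array is 1 hybridisation, scan and group cannot be told apart, and a slide block could not be fitted. The spot signal was 3.18 to 5.19 times the local background for Prox1 and as low as 3.43 times for A_64_P078140 of Amigo2, and 3 arrays a group left an interval as wide as -0.40 to 0.92 for Wfs1.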

Other observations

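Mossy cells, the excitatory neurons of the dentate hilus, and newborn granule cells are further dentate populations with known markers. Of 6 tested mossy cell genes 0 were called, against 12.6% of all tested probes, and the median log2 difference was -0.30. Glipr1 had levels of -3.52, -3.51 and -3.78 on the AD arrays, against -2.51, -1.45 and -2.83 on the Sham arrays, a difference of -1.34 ± 0.35 SE (adjusted p = 0.058, limma). Drd2, the dopamine D2 receptor, had levels of -1.74, -1.74 and -1.74 in AD, against -1.47, -1.11 and -0.71 in Sham, a difference of -0.65 ± 0.19 SE (adjusted p = 0.078, limma). For both genes every AD array lay below every Sham array. The groups did not overlap for 2 of the 6 genes, against 39.0% of all tested probes, so this is not read as particular to mossy cells. Of 3 tested genes of immature granule neurons 0 were called. Dcx, a microtubule protein of migrating young neurons, had levels of -5.33, -5.06 and -4.90 in AD, against -4.70, -3.96 and -4.06 in Sham, a difference of -0.86 ± 0.22 SE (adjusted p = 0.057, limma). Its signal was weak, with group means of -5.10 in AD and -4.24 in Sham. Those of Prox1, the dimmest member probe, were -4.20 and -3.99. Igfbpl1 differed by 0.82 ± 0.65 SE (adjusted p = 0.432, limma). Its levels were -3.34, -5.34 and -2.80 in AD, against -4.92, -4.81 and -4.23 in Sham. AD replicates 1 and 3 thus lay above every Sham array, and AD replicate 2 below. For subiculum and entorhinal cortex 0 of 5 genes were called, with Fn1 at -0.44 and Reln at -0.39, and the groups overlapped for all 5.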
